A study of Mus musculus with 22 samples.

Results

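The 29 genes described here carry cholesterol synthesis, its control by SREBP2, movement of sterol inside the cell, and the response to excess sterol through the liver X receptors (LXR). They were chosen by symbol out of the 55367 genes of the count table, and all 29 were found in it. By role, 18 encode enzymes of the synthesis pathway, 4 control SREBP2, 2 move sterol, 2 are LXR receptors and 3 are LXR targets. RNA was sequenced in 22 bulk libraries from mouse liver, whose cells carry the label HSC (commonly hepatic stellate cells). The diet groups came from mice fed CDA-HFD, a fatty feed that lacks choline and is used to model steatohepatitis with fibrosis. Each diet group has 3 libraries, 1 group for every zeitgeber time (ZT) of 0, 6, 12 and 18 h, where ZT0 is lights on and ZT12 is lights off. The control groups came from mice on chow, with 3 libraries each for ZT0 and ZT18 and 2 each for ZT6 and ZT12. The labels give 20 weeks as the age of both groups and 8 weeks as the age at which feeding began. They give the length of the diet as 12 weeks in one field and 6 months in another. Of the strain, the sex and the way the cells were isolated, nothing is stated in the sources used here. Whether every library had an animal to itself is not stated either, and the p-values speak only of spread among libraries, possibly technical.

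Cells build cholesterol from acetyl-CoA through mevalonate, squalene and lanosterol. When membrane sterol is low, SCAP carries SREBP2 out of the endoplasmic reticulum, and its cleaved form turns on the genes of the pathway. Insig proteins hold SCAP back when sterol is high, and oxysterols then switch on LXR, which raises the sterol exporters. In the liver, synthesis is known to follow a daily rhythm tied to feeding.

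Total gene counts ran from 19754805 to 41665623 per library, and levels are given as CPM, counts relative to the TMM-scaled library size. Control ZT0 replicate 2 lay nearest to the diet libraries of all control libraries on the main axis of variation, and control ZT18 replicate 1 stood apart on the next axis. The 16 stellate cell markers summed to 170 to 508 CPM in the diet libraries and 260 to 1027 CPM in the control libraries, where 3 and 4 of them averaged under 1 CPM. Of these 16, 4 were higher and 4 lower under diet, with a median log2 change of 0.34. Marker genes are counted as higher or lower at an adjusted p under 0.05 over all times, beside 27.5% and 24.9% of all tested genes. Endothelial markers summed to 1320 to 3110 CPM in the diet libraries and 20236 to 39452 CPM in the control libraries, and all 15 were lower under diet. The label HSC therefore stands beside few stellate transcripts and, in the control libraries, many endothelial ones. Marker sums were higher under diet for lymphocytes (2694 to 6618 against 489 to 1886 CPM, 14 of 14 genes higher) and macrophages (2213 to 4397 against 623 to 2996 CPM, 12 of 15 higher and 1 lower). They were also higher for hepatocytes (1055 to 2384 against 448 to 842 CPM, 12 of 15 higher) and cholangiocytes (1387 to 5200 against 372 to 973 CPM, 10 of 10 higher). Neutrophil and dendritic cell markers had 11 of 12 genes higher and 1 lower, and proliferation markers 11 of 12 higher. Of the erythroid genes 5 of 6 were higher, and of the immediate early genes 7 of 10. Of the 8 mitochondrially encoded genes, mt-Co2 and mt-Co3 were at 0 in every library and the other 6 were higher. Clock genes had 2 of 15 higher and 7 lower. None of the cell type markers was at 0 in all libraries of either group. In these bulk libraries, fewer cells of a type and less RNA per cell cannot be told apart.

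Over the 4 times, the genes that make cholesterol were on the whole higher under diet, and the 3 LXR targets among the members were lower. Outside the 29, 12 LXR partners, targets and export genes had 3 higher and 3 lower. The known LXR targets Lpl and Pltp were among the higher ones, while Rxra, Lpcat3 and Abca7 of the same list averaged lower under diet. Of the 18 synthesis enzymes 9 rose and 1 fell. The sterol regulator Srebf2 rose 1.56-fold and the squalene epoxidase Sqle 2.89-fold, while Mylip fell to 0.165 of its control level. Of all 29 members 20 were called (adjusted p under 0.05 over the 22409 genes tested), 13 higher and 7 lower. Among all tested genes 52.4% were called, 27.5% higher and 24.9% lower, so the share of members called lower, 24.1%, is near the background, and the share called higher, 44.8%, is above it. The median log2 change was 0.32 for the members and 0.08 for all tested genes. All 29 members passed the filter on low counts. The 12 diet and the 10 control libraries did not overlap at all for 6 members. Of these, Pmvk, Acat2, Fdft1 and Cyp51 were higher under diet in every library, and Stard4 and Mylip lower. Among all genes 17.1% did not overlap, 7.35% with diet higher and 9.78% with diet lower.

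**Figure D1:**
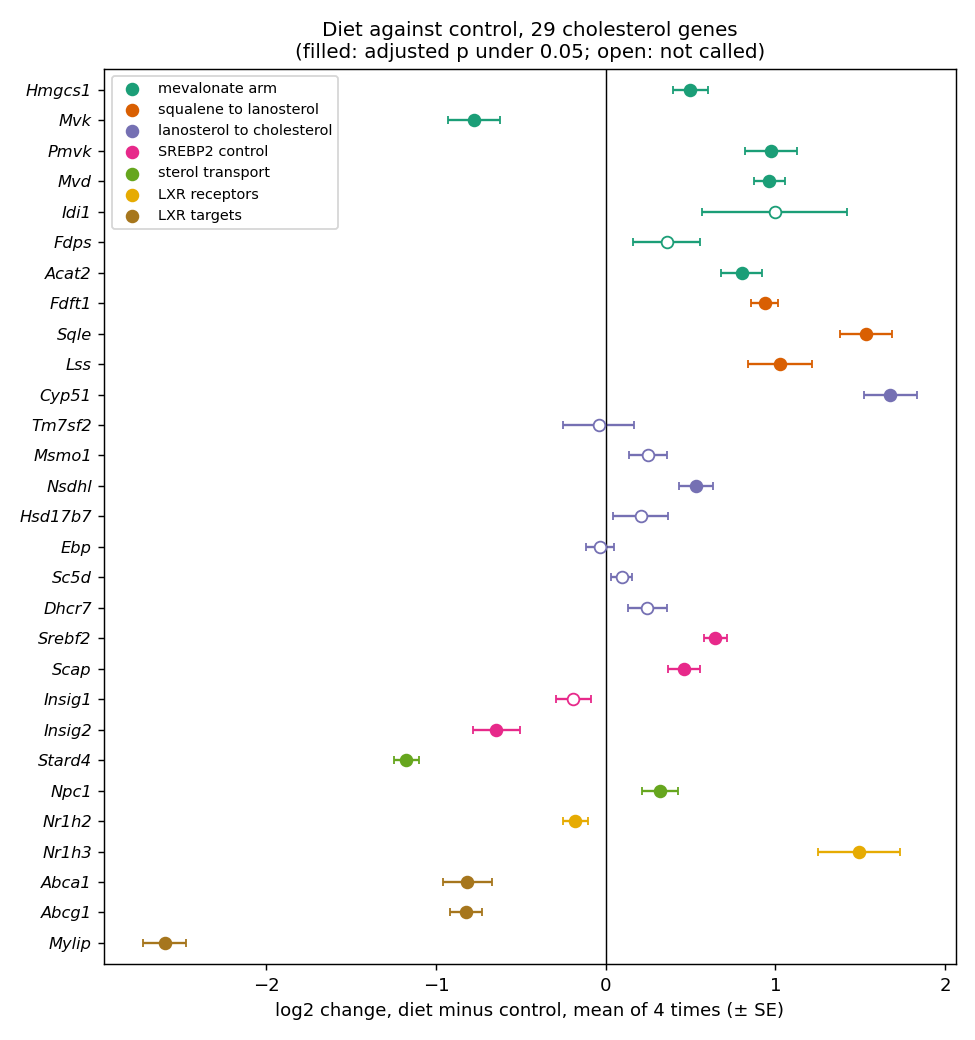
Log2 change between diet and control libraries, averaged over the 4 times (x axis, with standard error), for the 29 genes in pathway order and coloured by role. Filled points were called and open points were not. Most enzymes lie to the right of 0, with Cyp51 at 1.68 farthest, and the 3 LXR targets lie to the left, with Mylip at -2.60 farthest.

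Promoter sequences are shown for 2 enzymes that rose and 2 LXR targets that fell, since the groups moved in opposite directions. They are the 250 bases before the RefSeq gene start (GRCm38.p6), 5′ to 3′ on the gene's strand. Capitals mark the NF-Y box CCAAT on either strand, the site of a factor known to act with SREBP2, and the sterol regulatory element TCACNCCAC. The RefSeq table held 23 of the 29 members.
Hmgcs1, chr13:119690101-119690350, plus strand: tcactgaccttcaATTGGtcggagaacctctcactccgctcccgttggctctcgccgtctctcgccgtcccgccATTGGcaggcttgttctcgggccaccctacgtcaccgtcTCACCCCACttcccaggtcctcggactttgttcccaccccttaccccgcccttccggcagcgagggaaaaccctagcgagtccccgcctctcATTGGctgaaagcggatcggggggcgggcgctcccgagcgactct
Mvd, chr8:122443423-122443672, minus strand: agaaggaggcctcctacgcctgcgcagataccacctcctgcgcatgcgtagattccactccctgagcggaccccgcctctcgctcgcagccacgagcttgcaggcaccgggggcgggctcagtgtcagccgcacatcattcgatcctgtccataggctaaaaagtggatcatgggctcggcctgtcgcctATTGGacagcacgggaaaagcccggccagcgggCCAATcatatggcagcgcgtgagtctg
Abca1, chr4:53159896-53160145, minus strand: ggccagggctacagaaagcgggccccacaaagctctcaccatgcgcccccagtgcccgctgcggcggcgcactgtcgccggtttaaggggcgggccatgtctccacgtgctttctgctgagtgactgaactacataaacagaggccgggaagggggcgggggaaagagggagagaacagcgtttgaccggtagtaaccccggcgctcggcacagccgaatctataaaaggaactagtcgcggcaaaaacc
Mylip, chr13:45389492-45389741, plus strand: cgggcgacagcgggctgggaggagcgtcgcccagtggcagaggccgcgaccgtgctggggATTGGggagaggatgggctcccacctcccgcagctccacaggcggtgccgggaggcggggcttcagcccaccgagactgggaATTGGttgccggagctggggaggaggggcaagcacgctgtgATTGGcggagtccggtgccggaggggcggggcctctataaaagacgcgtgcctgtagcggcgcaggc

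Motifs were counted on both strands in windows of 300 bases around the start, of which 50 lie after it. A gene with several starts was counted once, as holding a motif if any of its windows did. Hmgcs1 was the one member with TCACNCCAC, 137 bases before the start, and 1.44% of the 27025 genes of the table hold it. CCAAT stood in 18 of the 23 members (78.3%) and 41.1% of all genes of the table. Among the synthesis enzymes 14 of the 15 in the table held it, and 4 of the 8 other members did. It was in 7 of the 10 members that rose and 3 of the 5 that fell. The Sp1 box GGGCGG was in 20 of 23 members (87.0%) and 38.2% of all genes of the table. The E-box CACGTG, which clock factors bind, was in 6 (26.1%), against 8.09% of all genes of the table. These 6 were Hsd17b7, Sc5d, Dhcr7, Scap, Insig1 and Abca1. No member held the D-box TTATGTAA (1.11% of genes), the ROR element of clock genes (0.259%) or the strict LXR element of the DR4 form (0.015%) in these windows. The genes of the table include ones not tested here, while all members passed the filter on low counts. The shares of members and of all genes are thus not like with like.

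In the mevalonate arm, which builds the isoprene units, 4 of 7 genes rose and 1 fell, beside 27.5% and 24.9% of all genes. Hmgcs1, which makes HMG-CoA, lay between 34.7 and 61.4 CPM in the diet libraries (median 42.1), against 19.6 to 57.4 CPM in the control libraries (median 31.6). Of its exon bases 12.1% overlap Gm48342 on the other strand. The groups overlapped through the ZT0 controls, and its log2 change was 0.50 ± 0.10 (SE; adjusted p = 0.000332). Mvk, mevalonate kinase, went the other way, at 6.64 to 14.1 CPM in the diet libraries (median 9.84) and 7.70 to 25.5 CPM in the control libraries (median 16.9). It was the one enzyme that fell, by 0.77 ± 0.15 on the log2 scale (adjusted p = 0.000203). Pmvk, the next kinase, had 30.04 to 47.5 CPM under diet (median 35.1) and 9.26 to 29.9 CPM in control (median 20.1). Its groups lay apart, and it rose by 0.97 ± 0.15 (adjusted p = 1.40e-05).

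Mvd, which decarboxylates mevalonate diphosphate, ran from 17.9 to 38.9 CPM under diet (median 33.8) and from 9.63 to 20.7 CPM in control (median 15.5). It rose by 0.96 ± 0.09 (adjusted p = 1.51e-08), with the diet ZT12 libraries the lowest of the diet group. Acat2, the cytosolic thiolase at the head of the pathway, had 13.5 to 18.98 CPM under diet (median 17.2) and 6.87 to 13.4 CPM in control (median 9.78). The groups touched but did not overlap, and the change was 0.80 ± 0.12 (adjusted p = 8.38e-06). Its relative Acat3 is 97.7% identical over 1477 bases, so reads could have been split between them. Idi1, the isopentenyl isomerase, and Fdps, which makes farnesyl diphosphate, were not called, at 0.99 ± 0.43 (adjusted p = 0.0583) and 0.36 ± 0.19 (0.133). Idi1 had 0 to 43 counts in a library and Fdps 35 to 93. Near-identical transcripts of other genes, 4 for Idi1 and 5 for Fdps, make both uncertain, and these can include overlapping genes. Of the exon bases of Fdps 26.7% overlap Gm43738 on the same strand. Of those of Idi1 9.2% overlap Gm48574 on the other strand. Idi1 was called by DESeq2 (1.03, adjusted p = 0.0116), and on library size alone both were called, at 1.16 (0.0296) for Idi1 and 0.54 (0.0228) for Fdps. Idi1 moved most with single libraries: its log2 change was 2.29, and called (adjusted p = 0.00175), without control ZT6 replicate 2, and the remaining ZT6 control had no count of the gene.

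All 3 genes from squalene to lanosterol rose, beside 27.5% of all genes. Fdft1, squalene synthase, had 32.7 to 55.8 CPM in the diet libraries (median 37.1), against 13.3 to 29.8 CPM in the control libraries (median 21.5). Every diet library was above every control library, and the change was 0.94 ± 0.08 (adjusted p = 1.83e-09). Of its exon bases 18.3% overlap Ctsb on the other strand, and with no stated strand setting those reads cannot be told apart. It also has 2 near copies, the longer being Gm6781 with 97.4% identity over 1249 bases, so its counts are uncertain to that extent. Sqle, squalene epoxidase, a rate-limiting step, had 24.8 to 56.6 CPM under diet (median 32.2) and 5.93 to 36.1 CPM in control (median 10.4). Its groups overlapped through control ZT0, where replicates 1 and 3 had 36.1 and 26.3 CPM. It rose by 1.53 ± 0.15 (adjusted p = 3.27e-08). Lss, lanosterol synthase, had 10.1 to 26.9 CPM under diet (median 15.9) and 3.02 to 14.7 CPM in control (median 8.53), a change of 1.03 ± 0.19 (adjusted p = 0.000106).

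Of the 8 genes from lanosterol to cholesterol 2 rose and none was called lower, beside 27.5% and 24.9% of all genes. The share that rose is thus near the background. Cyp51, the lanosterol demethylase, had 33.6 to 66.8 CPM in the diet libraries (median 53.0) and 6.39 to 31.6 CPM in the control libraries (median 18.8). The groups lay apart, and the change of 1.68 ± 0.16 (adjusted p = 1.18e-08) was the largest of the enzymes. Nsdhl, a sterol dehydrogenase, had 15.4 to 25.8 CPM under diet (median 21.004) and 10.2 to 19.7 CPM in control (median 14.3), and rose by 0.53 ± 0.10 (adjusted p = 0.000146). The others were not called. Msmo1, the methylsterol oxidase, changed by 0.25 ± 0.11 (adjusted p = 0.0656) and Dhcr7, the reductase of a last step, by 0.25 ± 0.12 (0.0833). Hsd17b7, a ketosteroid reductase, changed by 0.21 ± 0.16 (0.309) and Sc5d, the sterol desaturase, by 0.09 ± 0.06 (0.229). Ebp, the sterol isomerase, and Tm7sf2, a sterol reductase, lay at -0.03 ± 0.08 (0.778) and -0.04 ± 0.21 (0.903). Msmo1 passed the threshold under 6 settings, among them other scalings and DESeq2 (0.27, adjusted p = 0.0394), and Dhcr7 under DESeq2 (0.27, 0.0330), on library size alone (0.42, 0.00635) and with a mean CPM of at least 5 (0.31, 0.0217). Sc5d passed it on library size alone (0.27, 0.00257), with a mean CPM of at least 5 (0.16, 0.0328) and without the ZT0 libraries (0.26, 0.00490).

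Summed over the 18 enzymes, the level was 408 to 597 CPM in the diet libraries (median 473) and 260 to 446 CPM in the control libraries (median 323). The control ZT0 libraries were the highest of the control group at 446, 386 and 441 CPM, and 2 of them lay within the lower end of the diet range. Across genes, levels are compared per kilobase of merged exon. Of the enzymes Pmvk and Ebp were the most abundant under diet, at 21.8 ± 3.31 and 19.1 ± 2.63 CPM per kilobase (SD, n = 12). In control Ebp led at 19.4 ± 2.57 (n = 10), ahead of Pmvk at 11.6 ± 4.10. Idi1 and Fdps were the lowest, with 0.206 ± 0.0611 and 0.691 ± 0.118 under diet and 0.118 ± 0.0657 and 0.576 ± 0.194 in control. Reads of these genes may be lost to their near copies. Merged exon length is also not the length of a transcript, so the order of genes is approximate.

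Of the 4 genes that control SREBP2, 2 rose and 1 fell, beside 27.5% and 24.9% of all genes. Srebf2, which encodes SREBP2, had 55.2 to 74.5 CPM in the diet libraries (median 67.0), against 23.3 to 70.6 CPM in the control libraries (median 56.3). The overlap came from the control ZT0 and ZT18 libraries, and the change was 0.65 ± 0.07 (adjusted p = 5.01e-08). Scap, the escort of SREBP2, had 22.5 to 34.5 CPM under diet (median 31.8) and 14.5 to 27.4 CPM in control (median 22.05), and rose by 0.46 ± 0.10 (adjusted p = 0.000356). An antisense gene overlaps 13.2% of its exon bases. Insig2, one of the SCAP anchors, had 7.03 to 10.04 CPM under diet (median 8.48) and 5.03 to 19.95 CPM in control (median 14.1). Control ZT0 replicate 2 was the lowest of all 22 libraries, and the gene fell by 0.64 ± 0.14 (adjusted p = 0.000488). Insig1, the other anchor and itself an SREBP target, had 23.9 to 44.6 CPM under diet (median 34.2) and 25.2 to 64.5 CPM in control (median 41.1). It was not called (-0.19 ± 0.10, adjusted p = 0.131), but was lower without control ZT0 replicate 2 (-0.24, adjusted p = 0.0262) and without both control libraries that stand apart (-0.19, 0.0458).

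The sterol carriers moved in opposite directions. Stard4, a soluble carrier of cholesterol and a known SREBP2 target, had 24.9 to 40.01 CPM in the diet libraries (median 28.6) and 50.7 to 81.1 CPM in the control libraries (median 69.5). Its groups lay far apart, and it fell by 1.18 ± 0.07 (adjusted p = 2.32e-11), against the direction of the enzymes. Npc1, which lets cholesterol out of the lysosome, had 17.5 to 30.1 CPM under diet (median 23.0) and 12.7 to 24.6 CPM in control (median 18.5). It rose by 0.32 ± 0.11 (adjusted p = 0.0169), and was not called without control ZT12 replicate 2 (0.0514) or without the ZT6 libraries (0.22, 0.130).

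The 2 LXR receptors differed. Nr1h3 (LXR alpha), the form that is abundant in macrophages and hepatocytes, had 22.4 to 66.8 CPM in the diet libraries (median 45.3), against 6.81 to 59.8 CPM in the control libraries (median 12.3). Control ZT6 replicate 2 alone held 59.8 CPM, and the other 9 control libraries had 6.81 to 16.1 CPM, below every diet library. The change was 1.49 ± 0.24 (adjusted p = 2.25e-05), and 1.96 without that library. In it the macrophage markers summed to 2996 CPM, against 623 to 1118 CPM in the other control libraries and 2213 to 4397 CPM in the diet libraries. The part of macrophage RNA in the Nr1h3 result was not tested. Nr1h2 (LXR beta), found in most cells, had 32.8 to 50.7 CPM under diet (median 37.2) and 35.5 to 54.6 CPM in control (median 43.1). Its change of -0.18 ± 0.07 was called narrowly (adjusted p = 0.0483), and that call ended in 15 of the 22 fits that leave out a library (adjusted p 0.0534 to 0.186).

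All 3 LXR targets among the members fell, beside 24.9% of all genes called lower. Mylip, a ubiquitin ligase that marks lipoprotein receptors for breakdown, had 13.6 to 32.1 CPM in the diet libraries (median 18.96), against 62.1 to 155 CPM in the control libraries (median 130.1). It fell by 2.60 ± 0.13 (adjusted p = 4.08e-13), the largest change of the 29 genes. The lowest control library was ZT0 replicate 2, and the change was -2.66 without it. Abca1, which loads cholesterol onto lipid-poor apolipoproteins, had 24.4 to 71.0 CPM under diet (median 34.1) and 34.3 to 113 CPM in control (median 54.8). Diet ZT12 replicate 1 held the 71.0 CPM and the next diet library 45.8, and the gene fell by 0.81 ± 0.14 (adjusted p = 6.76e-05). In that library hepatocyte markers summed to 2384 CPM and cholangiocyte markers to 5200 CPM, the highest sums of the diet libraries. The part of these cells in its Abca1 level was not tested. Abcg1, which passes cholesterol to lipoprotein particles, had 48.02 to 73.1 CPM under diet (median 59.5) and 54.5 to 143 CPM in control (median 105.5), and fell by 0.82 ± 0.10 (adjusted p = 2.74e-07). Per kilobase of exon, Mylip was the most abundant of the 29 genes in control, at 38.7 ± 7.77 CPM per kilobase (SD, n = 10), and had 6.46 ± 1.64 under diet (n = 12). In the same libraries all 15 endothelial markers were lower under diet, with a median log2 change of -4.07. The part of endothelial RNA in the lower LXR targets was not tested.

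**Figure D2:**
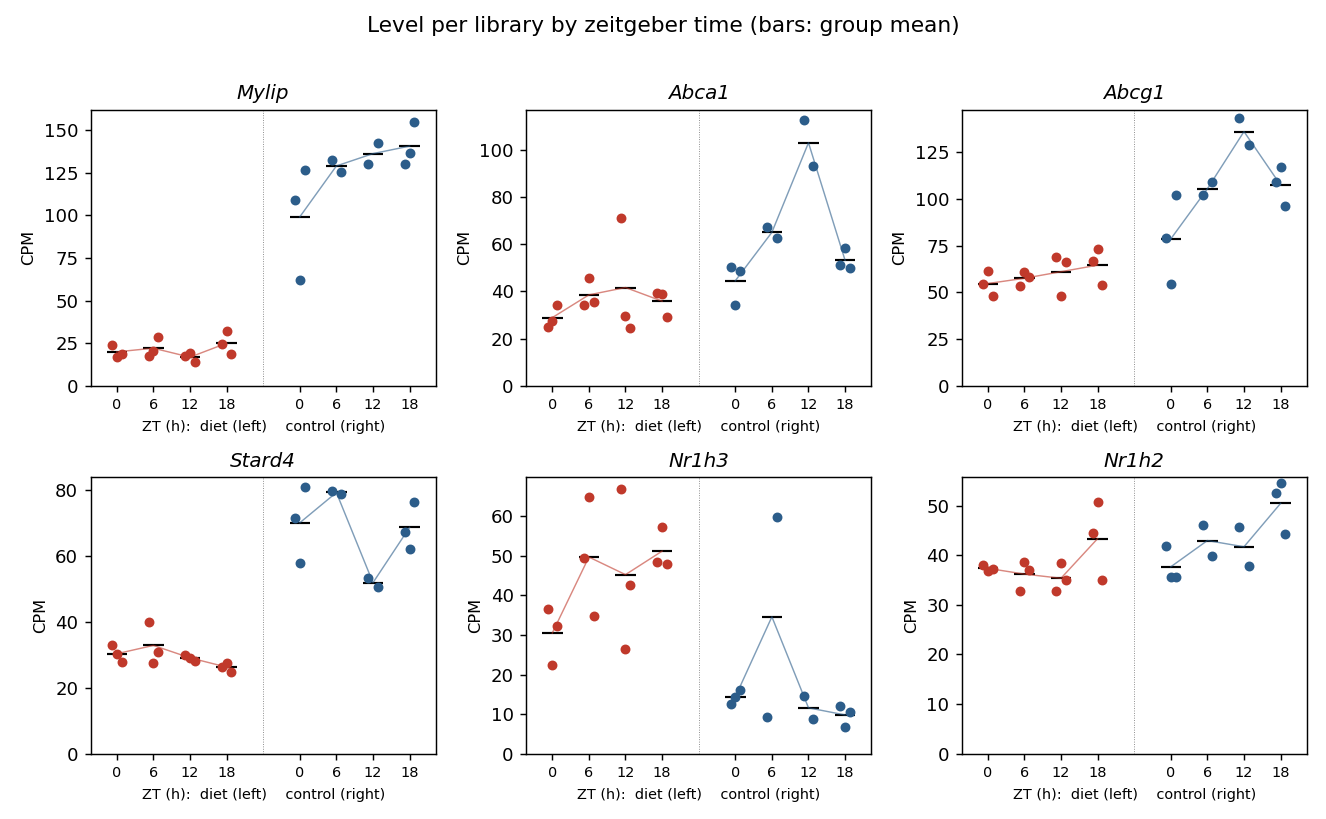
Level in CPM (y axis, from 0) of the LXR targets, Stard4 and the LXR receptors in every library by zeitgeber time (x axis, h), with diet at the left and control at the right of each panel. Points are libraries and bars group means. Mylip and Stard4 show no overlap between diet and control, and Nr1h3 shows the single control library at 59.8 CPM.

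**Figure D3:**
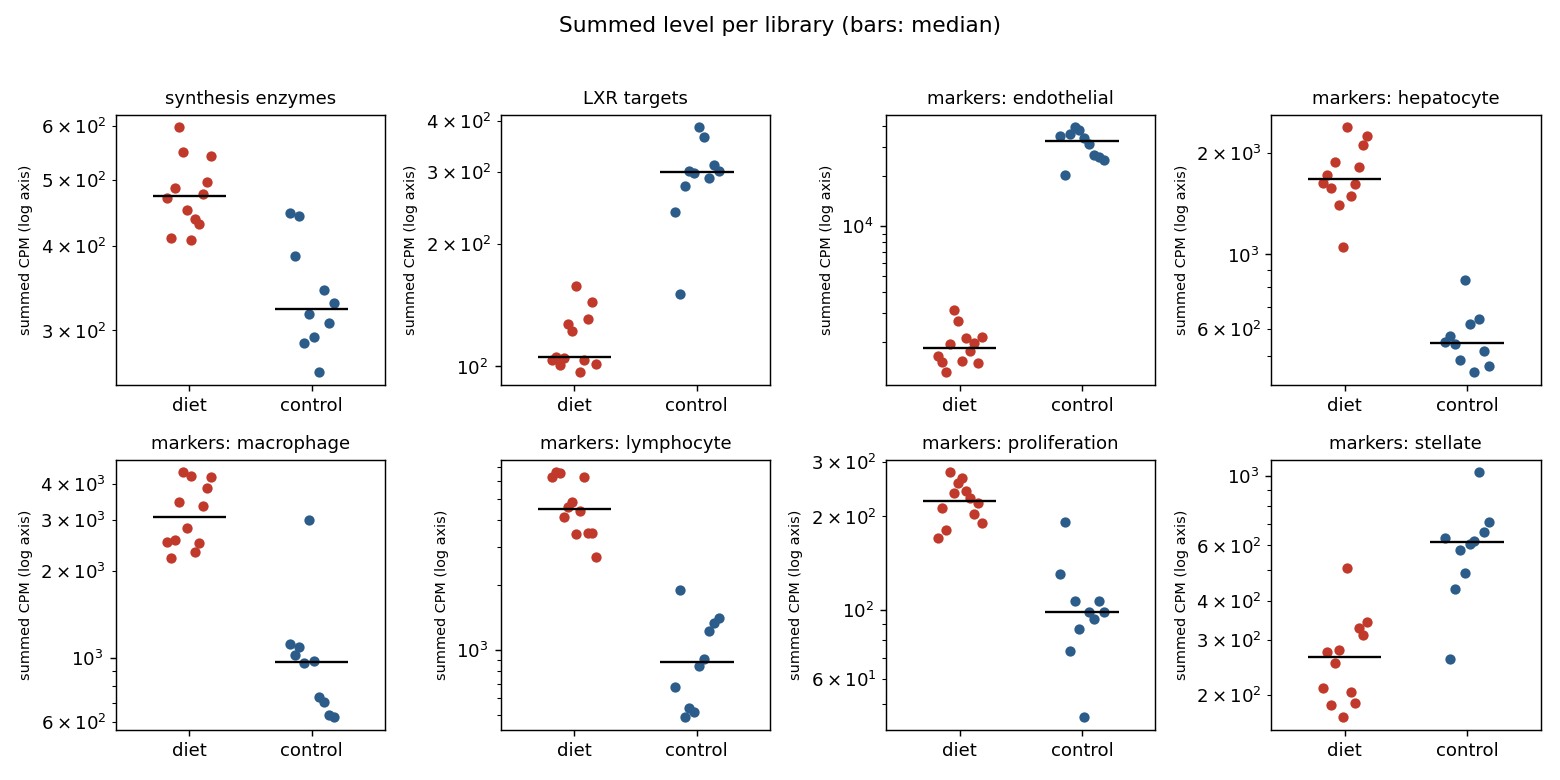
Summed CPM per library on log axes for the 18 synthesis enzymes, the 3 LXR targets and 6 marker lists, with diet at the left and control at the right of each panel and bars at the median. The enzymes differ in their medians, 473 CPM under diet and 323 CPM in control, with some overlap. The endothelial, lymphocyte and hepatocyte sums do not overlap between diet and control.

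The number of members called between diet and control differed by time. The ZT6 and ZT12 control groups hold 2 libraries each and the other groups 3, so these counts are not on an equal footing. The diet by time interaction, the test of a difference that changes with time, called 3 of 29 members, against 0.959% of all genes. Of the 18 enzymes it called 2. At ZT0, lights on, 7 of 29 members were called, 2 higher and 5 lower, against 30% of all genes (13.5% higher and 16.5% lower). At ZT6 15 were called, 12 higher and 3 lower, against 30.1% (14.8% and 15.3%). The count was 12 at ZT12, 8 higher and 4 lower, against 29.6% (14.3% and 15.3%), and 14 at ZT18, 10 higher and 4 lower, against 30.9% (15.3% and 15.5%). The median log2 change of the members from ZT0 to ZT18 was -0.02, 0.60, 0.33 and 0.26, against -0.02, 0.08, 0.06 and 0.03 for all genes. Of the 18 enzymes 2 were higher and 2 lower at ZT0. At ZT6 10 were higher, at ZT12 6 and at ZT18 8, and none was called lower at these 3 times. The ZT6 calls of Hmgcs1, Acat2, Nsdhl and Sc5d each ended without 1 control ZT6 library, which leaves 1 in that group. Their lowest values in such fits were 0.68, 0.68, 0.69 and 0.49. The calls of Hmgcs1 and Acat2 at ZT12 and ZT18 also each ended in at least 1 fit that leaves out a library. The higher genes at ZT0 were Mvd (0.88 ± 0.17, adjusted p = 0.000385) and Cyp51 (0.89 ± 0.28, 0.0202), and the lower enzymes were Mvk (-1.31 ± 0.29, 0.00146) and Sc5d (-0.45 ± 0.12, 0.00557). The ZT0 call of Sc5d ended on library size alone (-0.34, 0.0597).

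Mvd, Cyp51, Stard4, Abcg1 and Mylip were called at all 4 times, each in 1 direction. Mylip changed by -2.32, -2.55, -3.03 and -2.49 from ZT0 to ZT18, and Stard4 by -1.21, -1.27, -0.84 and -1.39. Cyp51 was 0.89, 2.20, 2.03 and 1.59, and Abcg1 -0.52, -0.87, -1.16 and -0.73. At ZT0 the call of Cyp51 ended in 4 and that of Abcg1 in 8 of the 22 fits that leave out a library, and that of Abcg1 also on library size alone (adjusted p = 0.0719). The ZT12 call of Mvd ended without control ZT12 replicate 1 (0.67, 0.0660). Lss was called at ZT6 alone (2.04 ± 0.43, adjusted p = 0.000789), and its value there was 1.51 without control ZT6 replicate 1 and 2.81 without replicate 2. Nr1h3 was called at ZT12 (1.97 ± 0.53, adjusted p = 0.00684) and ZT18 (2.39 ± 0.46, 0.000382). At ZT6, where 1 control library was high, it was 0.53 ± 0.49 (0.490). Without control ZT12 replicate 2 the ZT12 call of Nr1h3 ended (0.108). Abca1 was called at ZT12 (-1.31 ± 0.30, adjusted p = 0.00212), and Insig2 at ZT18 (-0.94 ± 0.26, 0.00906). The ZT12 value of Abca1 ran from -1.93 to -1.04 as each library was left out. Endothelial markers were lower at every time, 15 of 15 at each. Of the 15 hepatocyte markers 12, 3, 8 and 10 were called higher from ZT0 to ZT18, and the part of hepatocyte RNA in the enzyme differences was not tested.

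**Figure D4:**
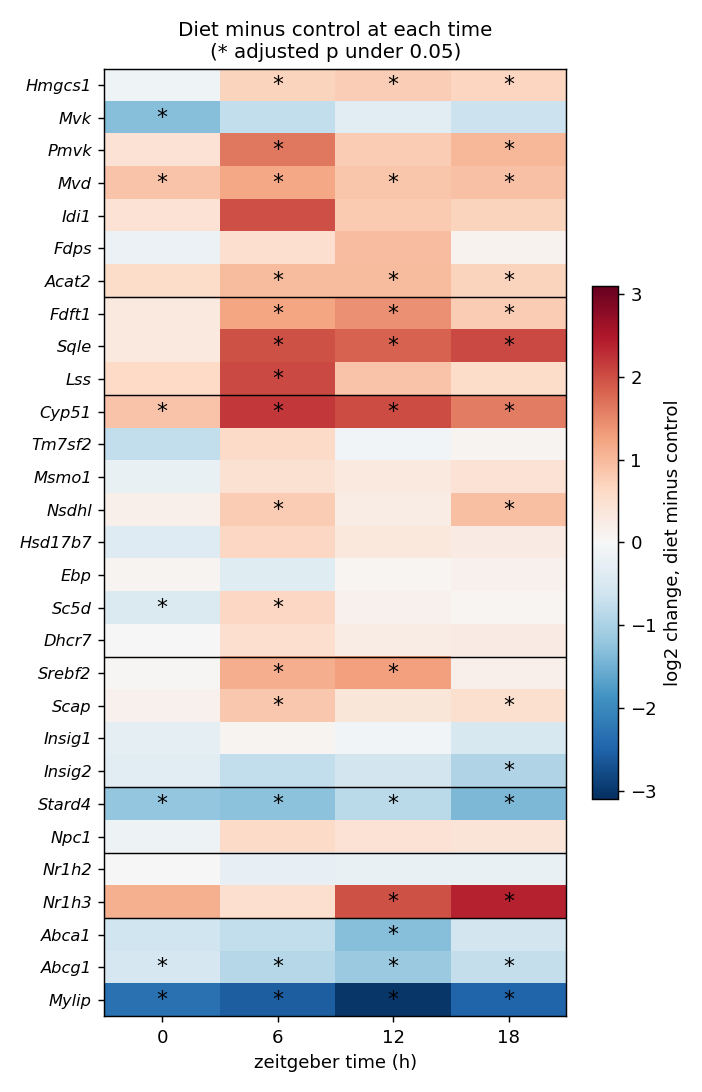
Log2 change between diet and control at each zeitgeber time (x axis, h) for the 29 genes in pathway order, in red for higher and blue for lower under diet, with asterisks at the called differences. Most enzymes at the top are paler at ZT0, where 2 are called higher and 2 lower, than at ZT6, where 10 are called higher. Mvk (-1.31) and Tm7sf2 (-0.76) are instead darkest at ZT0. The 3 LXR targets at the bottom are blue in all 4 columns.

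Within the control groups, genes of sterol synthesis differed between times. An F test over the 4 control groups called 6 of 29 members, against 5.74% of all genes. They were Srebf2, Sqle, Sc5d, Fdft1, Cyp51 and Hmgcs1, in order of p, and 16 members had an unadjusted p under 0.05. Hmgcs1 was not called in 6 of the 22 fits that leave out a library (adjusted p 0.0593 to 0.151). Fdft1 was not called without control ZT12 replicate 2 (0.0676), Cyp51 without control ZT6 replicate 2 (0.0546) and Sc5d without control ZT6 replicate 1 (0.0689). In control, 15 of the 18 enzymes had their highest mean at ZT0 and 9 their lowest at ZT12, and the ratio of highest to lowest mean had a median of 1.78. Under diet, 2 of 18 had their highest mean at ZT0 and 8 at ZT6, and the median ratio was 1.35. These peak times and ratios were not computed over all genes, so no background stands beside them. The control means at ZT6 and ZT12 rest on 2 libraries each, against 3 in every diet group, which can itself widen the control ratio. Over the 4 diet groups the same F test called none of the 29 members, while 1.08% of all genes were called. Without diet ZT18 replicate 2 or control ZT0 replicate 2, the count was 1, Mvd. At an unadjusted p under 0.05 there were 5, and DESeq2 called 1, Mvd. Mvd came nearest in edgeR too (adjusted p = 0.0548). It had 37.6, 38.9 and 32.9 CPM in the diet libraries at ZT0, 34.7, 32.9 and 35.4 at ZT6, 17.9, 21.7 and 23.2 at ZT12, and 35.1, 25.1 and 37.3 at ZT18.

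Srebf2 had 65.4, 64.3 and 65.7 CPM in the diet libraries at ZT0, 73.3, 74.5 and 69.9 at ZT6, 65.2, 71.9 and 55.2 at ZT12, and 68.3, 70.6 and 65.0 at ZT18. In the control libraries it had 55.8, 70.6 and 63.1 CPM at ZT0, 35.6 and 31.3 at ZT6, 23.3 and 30.2 at ZT12, and 67.8, 56.7 and 58.3 at ZT18. The control libraries of ZT6 and ZT12 lay below every other library, and no time stood out under diet. Srebf2 differed between control times (adjusted p = 3.02e-05) and not under diet (0.900). The test of that difference itself, the diet by time interaction, called it (adjusted p = 0.00195). In log2 terms, diet exceeded control by 1.12 ± 0.14 at ZT6 and 1.26 ± 0.14 at ZT12, and by 0.05 ± 0.12 at ZT0 and 0.16 ± 0.12 at ZT18.

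The interaction called 3 of 29 members, against 0.959% of all genes, and the other 2 were Sc5d and Fdft1. The count was 1 without diet ZT0 replicate 2 or diet ZT6 replicate 2, and 5 without control ZT0 replicate 2. Sc5d had 48.6, 35.5 and 44.0 CPM under diet at ZT0, 52.3, 53.9 and 53.8 at ZT6, 45.3, 47.9 and 48.9 at ZT12, and 58.7, 52.9 and 56.9 at ZT18. In control it had 57.9, 59.3 and 57.9 CPM at ZT0, 30.8 and 37.6 at ZT6, 42.1 and 44.3 at ZT12, and 58.0, 48.3 and 56.4 at ZT18. Diet was thus lower than control at ZT0 in every library and higher at ZT6 in every library (interaction adjusted p = 0.0245, times in control 0.00526). That interaction was not called without diet ZT0 replicate 2, diet ZT6 replicate 2 or control ZT6 replicate 1 (adjusted p 0.0524 to 0.10004).

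Fdft1 had 35.9, 34.7 and 33.7 CPM under diet at ZT0, 55.8, 50.8 and 36.9 at ZT6, 39.9, 37.4 and 38.7 at ZT12, and 35.9, 32.7 and 40.7 at ZT18. The control libraries had 27.9, 26.7 and 29.8 CPM at ZT0, 19.1 and 21.7 at ZT6, 15.8 and 13.3 at ZT12, and 22.5, 21.4 and 19.1 at ZT18. Diet was above control at each time, by the least at ZT0. The interaction was called (adjusted p = 0.0369), but 19 of the 22 fits that leave out a library ended that call (0.0501 to 0.105), and so did the replicate block (0.0563). The F test over control times gave an adjusted p of 0.00825.

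Sqle had 35.4, 30.3 and 33.1 CPM under diet at ZT0, 56.6, 48.5 and 26.2 at ZT6, 28.1, 24.8 and 31.3 at ZT12, and 29.1, 39.1 and 40.2 at ZT18. In control it had 36.1, 18.3 and 26.3 CPM at ZT0, 9.06 and 13.3 at ZT6, 10.1 and 5.93 at ZT12, and 7.04, 8.34 and 10.8 at ZT18. Its control level was high at ZT0 and low at the 3 other times (adjusted p = 0.00174 between control times). The interaction fell just short (adjusted p = 0.0588) and was called by DESeq2. Cyp51 in control had 26.5, 31.6 and 25.8 CPM at ZT0, 11.7 and 11.6 at ZT6, 14.3 and 6.39 at ZT12, and 10.3, 23.3 and 24.7 at ZT18 (adjusted p = 0.0201). Hmgcs1 in control had 57.4, 32.1 and 44.4 CPM at ZT0, 30.6 and 31.1 at ZT6, 25.5 and 19.6 at ZT12, and 32.8, 33.1 and 25.1 at ZT18 (adjusted p = 0.0351). Both had their lowest control mean at ZT12, and neither had an interaction that was called (adjusted p 0.264 and 0.203).

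**Figure D5:**
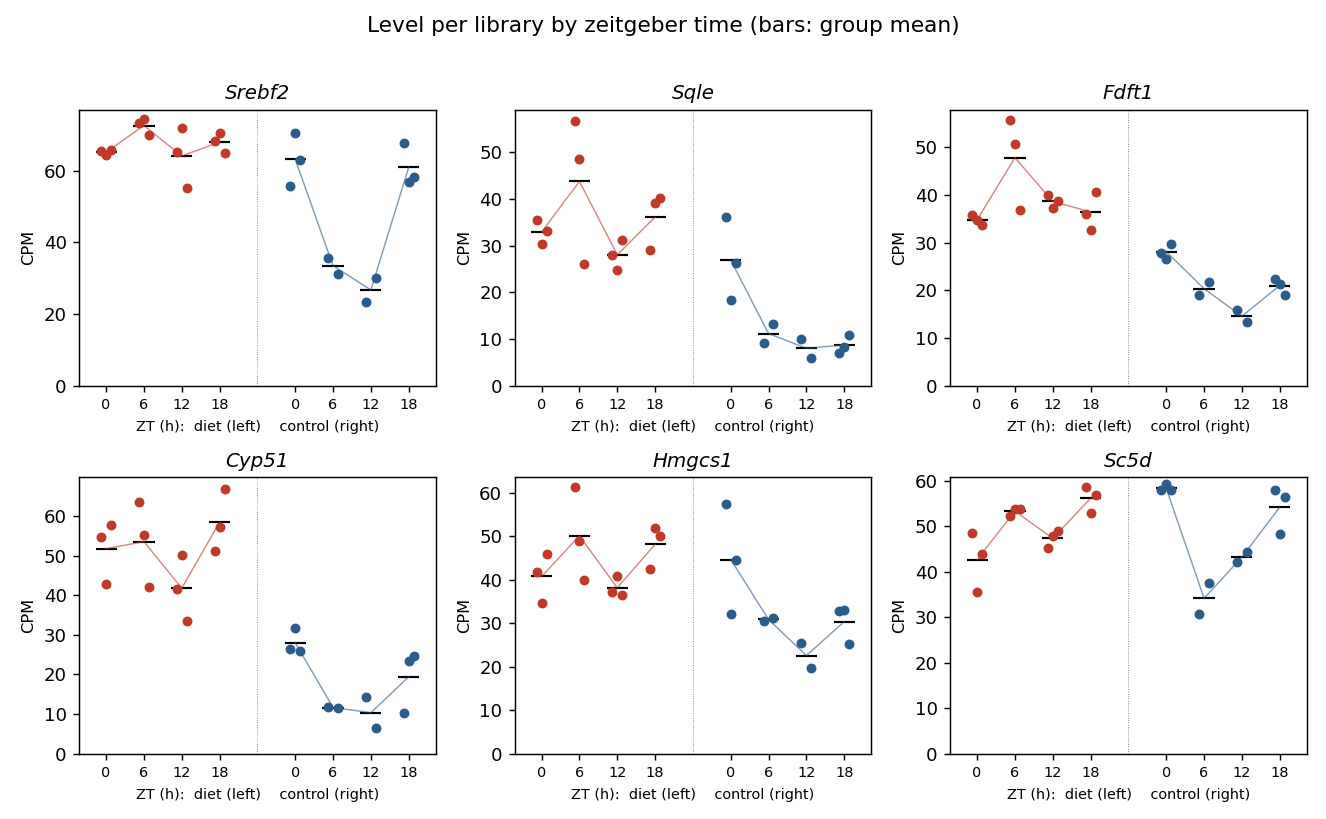
Level in CPM (y axis, from 0) of the 6 genes called between control times in every library by zeitgeber time (x axis, h), with diet at the left and control at the right of each panel. Points are libraries and bars group means. The 4 control libraries of Srebf2 at ZT6 and ZT12 lie at 23.3 to 35.6 CPM, below all others, and Sqle in control is highest at ZT0.

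None of the 3 LXR targets was called between control times. Abca1 had 44.5 ± 8.83 CPM at ZT0 (SD, n = 3), 65.04 ± 3.35 at ZT6 (n = 2), 103 ± 13.7 at ZT12 (n = 2) and 53.2 ± 4.53 at ZT18 (n = 3; adjusted p = 0.0618). Abcg1 had 78.6 ± 23.8, 105.5 ± 4.85, 136 ± 9.99 and 107 ± 10.5 CPM at the same times (adjusted p = 0.0855). DESeq2 called both. Mylip had 99.1 ± 33.3, 129 ± 4.73, 136 ± 8.60 and 141 ± 12.9 CPM (adjusted p = 0.447). Calls between control times were counted in other lists too, beside 5.74% of all genes. They covered 13 of 15 clock genes, all 10 immediate early genes, 11 of 15 macrophage markers and 5 of 14 lymphocyte markers. Of the endothelial markers 2 of 15 were called, and of the hepatocyte markers 1 of 15, which is near the share of all genes. Immediate early genes averaged 3137, 6909, 4945 and 9893 CPM in control from ZT0 to ZT18. Their part in the time differences of the sterol genes was not tested.

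Of 54 further genes of sterol handling, 53 were tested and 34 were called over all times, 12 higher and 22 lower, with a median log2 change of -0.03, beside the 52.4% of all genes called (27.5% higher and 24.9% lower). Hsd3b7, of bile acid synthesis, had 0 counts in every library, and whether expression or the counting set this was not tested. Lipoprotein uptake held 4 lower and 2 higher of 8 genes. Scarb1, the receptor of high-density lipoprotein, averaged 99.4 ± 18.6 CPM under diet (SD, n = 12) and 340 ± 53.6 in control (n = 10), a change of -1.81 ± 0.07 (adjusted p = 1.73e-14). The scavenger receptor Msr1 (-2.58 ± 0.11) and the fatty acid and lipoprotein receptor Cd36 (-1.44 ± 0.07) were lower too, and the receptor Lrp8 was higher (2.41 ± 0.23). All of these genes but Lrp8 are also known in sinusoidal endothelium or macrophages.

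Of the 7 partners of synthesis and the isoprenoid branch 6 fell and 1 rose, unlike most enzymes. Cyb5r3, which passes electrons to the sterol oxidases, averaged 249.4 ± 24.5 CPM under diet and 718 ± 98.8 in control (-1.54 ± 0.07, adjusted p = 1.99e-13). The 9 genes of SREBP processing and sterol sensing had 2 higher and 5 lower, and the 4 of esterification had none called. Of the 12 LXR partners and other targets 3 rose and 3 fell, near the 27.5% and 24.9% of all genes. Lpl, lipoprotein lipase, averaged 199 ± 75.2 CPM under diet and 33.2 ± 21.9 in control (2.63 ± 0.22, adjusted p = 1.66e-09), and the phospholipid transfer gene Pltp rose by 1.72 ± 0.16. Both are known LXR targets that went against Abca1, Abcg1 and Mylip. Others of this list did not rise: Rxra, Lpcat3 and Abca7 averaged 17.3, 33.4 and 57.5 CPM under diet. In control these averaged 49.6, 43.1 and 84.2 CPM. Npc2, the partner of Npc1 in the lysosome, rose by 0.64 ± 0.05. Between control times 6 of the 53 were called, beside 5.74% of all genes, and under diet 2, beside 1.08%. The interaction called 1, Cd36 (adjusted p = 0.00647), beside 0.959%.

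With a score of hepatocyte markers as a covariate, 5 of the 20 members called over all times were still called: Mvd (1.32), Srebf2 (0.92), Stard4 (-1.28), Abcg1 (-1.19) and Mylip (-2.45). That score differs between diet and control too, and the effects of both cannot be told apart. Cyp51 (1.19, adjusted p = 0.102) and Sqle (0.62, 0.405) kept their direction without a call, and Nr1h3 turned to -0.60 (0.549). Of the 20 members 18 kept their sign.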

How the data were processed

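Raw counts per gene from bulk RNA-seq were deposited by the authors for 22 libraries. Per the submitters' processing notes, STAR 2.7.9a, HTSeq and DESeq2 were used with the builds GRCm38 and mm10, with no order or strand setting named. Here, edgeR 4.0.16 (R 4.3.3) scaled the libraries by TMM and kept genes by filterByExpr. All 22 libraries entered 1 quasi-likelihood model, which holds 8 group means. Contrasts were diet minus control at each time and averaged over times, and F tests over diet times, control times and their interaction. Adjusted p-values are Benjamini-Hochberg over the 22409 genes tested, called under 0.05, and intervals after ± on log2 changes are standard errors. Depth had a median of 24473316 counts per library, and low counts limit Idi1 and Fdps most.

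The members and gene lists were chosen with earlier results of these data known. All members are named, with statistics for those called over all times and for up to 6 called in each F test. Of the other pathway genes, up to 4 in each direction with the smallest p over all times are named. Near copies have at least 90% identity over 200 bases (minimap2 2.31-r1302, GENCODE M21 annotation of GRCm38). No pair of replicates agreed within sampling noise. Replicate numbers were checked for pairing: over 71 same-numbered pairs, correlations of deviations ran from -0.143 to 0.138, so numbers were not used as pairs. Alternatives were RLE scaling, library size only, only the groups compared, other filters, DESeq2 1.42.0, 24 h cosine terms, a hepatocyte score, a replicate block, and leaving out libraries or times.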

Additional observations from a re-analysis of the deposited data

Results flagged for a closer look

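Nr1h3 in control ZT6 replicate 2 had 59.8 CPM, far from the other 9 control libraries (6.81 to 16.1 CPM), where the diet libraries had 22.4 to 66.8 CPM. The hepatocyte marker sum of that library was 842 CPM, against 448 to 645 CPM in the other control libraries. Mylip in control ZT0 replicate 2 had 62.1 CPM, far below the other control libraries (109 to 155 CPM) and above the diet libraries (13.6 to 32.1 CPM). The endothelial marker sum of that library was 20236 CPM, against 25103 to 39452 CPM in the other control libraries. These are 2 of 29 genes examined over the 10 control libraries, and chance alone sets apart about 1 in 20. The part of these markers in both values was not tested.

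The diet by time interaction was called for Srebf2 (edgeR, adjusted p = 0.00195), Sc5d (0.0245) and Fdft1 (0.0369). Leaving out a library gave an adjusted p of 0.000456 to 0.00813 for Srebf2. The call of Sc5d ended in 3 of the 22 fits that leave out a library. That of Fdft1 ended in 19 of them and under the replicate block (0.0563).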

How the results depend on the processing

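With the hepatocyte score as a covariate, members called fell to 5 over all times, 3 at ZT0 and 3 at ZT18, with 17.97% of all genes called over all times, and the cause was not tested. Under the other settings tried, 18 to 24 members were called over all times, with 24 on library size alone, which moved the median of all genes to 0.25 against 0.08. The share of all genes called was 25.1% with no filter (20 members), 76.1% with a mean CPM of at least 5 (22 of the 26 members tested) and 48.1% to 54.6% under the others. Under diet, times called 2 members with no filter, and 1 each with a mean CPM of at least 5, DESeq2, only the groups compared, or without the 2 control libraries that stand apart. Times in control called 12 with no filter, 12 with DESeq2 and 3 with only the groups compared. The interaction called 8 with no filter, 1 with cosine terms and 5 without the 2 control libraries that stand apart. Leaving out each library gave 19 to 22 members over all times, 5 to 10 at ZT0, 12 to 18 at ZT6, 10 to 13 at ZT12, 12 to 15 at ZT18, 0 to 1 under diet, 4 to 8 in control and 1 to 5 for the interaction.

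The direction turned with the hepatocyte score for Idi1 (-1.24), Msmo1 (-0.25), Npc1 (-0.0014) and Nr1h3 (-0.60, and -0.92 at ZT18). Tm7sf2 turned to 0.14 on library size alone, 0.18 without ZT0 and 0.013 without ZT12, and ran from -0.12 to 0.060 as each library was left out. Ebp turned to 0.14 on library size alone, 0.028 with a mean CPM of at least 5 and 0.087 without ZT6, and ran from -0.075 to 0.0014 as each library was left out. Sc5d turned to -0.088 without ZT6. Nr1h2 was called over all times under no alternative but the one without ZT0, beside 7 of the 22 fits that leave out a library.

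The replicate block left 20 members called over all times and 2 in the interaction, Sc5d and Srebf2, with Idi1 called (1.10, adjusted p = 0.0465) and Nr1h2 not (0.0922). The correlations of same-numbered libraries showed no pairing, but cannot exclude it.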
